A study of Sus scrofa with 48 samples.

Results

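A group of 5 genes that act on polyunsaturated fatty acids were followed in pig liver: ACSL4, FADS1, FADS2, ELOVL5 and ELOVL2. Their probes were found by gene name, or by the accession in the systematic name of a probe, among the 60305 probes of the array. ACSL4 was chosen by its measured signal, which was lower with the high-fat diet, so that its diet values are a description with no test. The other members were chosen for their place in the same pathway, though earlier results of these data were known at the time. The array carried 14 probes of 4 members, namely 8 for ACSL4, 2 for FADS1, 2 for FADS2 and 2 for ELOVL5, and all 14 were among the 45236 probes (10622 named genes) that could be tested. ELOVL2 had 0 probes by this rule and was not analysed here.

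Polyunsaturated fatty acids from the diet are lengthened and desaturated mainly in the liver. FADS2 opens the chain of reactions by inserting a double bond, ELOVL5 adds carbons to the product, FADS1 inserts a further double bond to give arachidonic acid or its omega-3 counterpart, and ELOVL2 lengthens the longest of these acids. ACSL4 couples arachidonic acid and related acids to coenzyme A, which lets them enter phospholipids, where they are open to peroxidation and are the store from which eicosanoids are made.

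Liver RNA came from 48 barrows with 1 array each, 24 from a line selected over 8 generations for low residual feed intake (low RFI, labelled RFIneg) and 24 from a line selected for high residual feed intake (high RFI, labelled RFIpl). Residual feed intake is the feed eaten above or below that predicted from growth and body composition, and a pig of the low RFI line is the more efficient one. From 74 days of age, and for about 58 days, 12 pigs of each line received a high-fat high-fiber feed (HF) and 12 a low-fat low-fiber feed (LF), so that fat and fiber changed together and their effects cannot be told apart. All pigs were fed ad libitum and, by the methods of the study, were killed in the post-prandial period.

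The 6 slides held 8 arrays each, 2 of every line and diet group, and 24 arrays were scanned on each of 2 days. On each array, 65.8% to 77.2% of probes were well above background, and the median background-subtracted intensity of an array was between 53.04 and 126.4 in the arbitrary units of the scanner. Values are log2 intensities centred on the median of each array, so that 0 is the median of the tested probes. Levels of different probes are not compared, because probes differ in their binding. A positive fold-change (FC, on the log2 scale) means over-expression with the HF diet or in the low RFI line. A probe was called at P under 0.01 and FC over 1.1, the cut-offs of the study, in a limma fit of line, diet and interaction terms, and P-BH is the Benjamini-Hochberg value over all 45236 tested probes. A gene with several probes is represented by the one of highest mean intensity. The hepatocyte markers ALB, TTR, SERPINA1, TF, APOA1 and CPS1 were used to check the tissue, and the 5 that could be tested had a mean level of between 10.1 and 10.8 in every pig.

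The probes are 60 bases long, and the first 30 bases, 5′ to 3′, are shown for those on which the results turn. For ACSL4 these are the probe of highest mean intensity and the probe with the largest diet difference, and for ELOVL5 both probes, which did not give the same line effect.
ACSL4 A_72_P661539: gcacgattgcaggattgttacttagatttt
ACSL4 O10047: atgatacagagaagagttagtaatctttgg
ELOVL5 O10347: gtcaaagtgtgctttagctcatctggatat
ELOVL5 A_72_P400463: tccatcagttccagacccctagaaaacgta

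The brightest FADS1 and FADS2 probes share a run of 16 bases, shown in capitals within the surrounding bases of each probe. Whether this affects how far the 2 signals are separate was not tested.
FADS1 A_72_P441229: agaagTGGGTGGACTTGGCCTggatg
FADS2 A_72_P244657: aagacTGGGTGGACTTGGCCT

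For ACSL4, the probes named A_72_P444819 and A_72_P180776 overlap each other by 56 bases, so that they are nearly a single measurement. They also hold the 20 bases shown in capitals that are found in the ACSL3 probe A_72_P668286, ACSL3 being the closest relative of ACSL4.
ACSL4 A_72_P444819: tcaaaGACATTGAGCGAATGTATGGgggca
The second FADS1 probe, O3556, is dim, and the 19 bases in capitals are the reverse complement of the first 19 bases of A_72_P441229, so that only 1 of the probes can be complementary to the labelled RNA of the gene in that stretch.
FADS1 O3556: TCCTCTTGATAACAAAATAgaaaa

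ACSL4 signal was lower with the HF diet in both lines. Among low RFI pigs, the level of its brightest probe was 2.50 at the lowest, 3.96 at the median and 4.63 at the highest with the HF diet, against 3.76, 4.79 and 5.65 with the LF diet. Among high RFI pigs, the corresponding values were 2.41, 3.58 and 4.88 with the HF diet and 2.43, 4.67 and 5.56 with the LF diet. The median of the LF pigs was above all 12 HF pigs in the low RFI line and above 10 of 12 in the high RFI line, and the diet groups overlapped in both lines.

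Averaged over the lines, the mean level of ACSL4 was 3.75 ± 0.74 (SD, n = 24) with the HF diet and 4.52 ± 0.79 (SD, n = 24) with the LF diet. This is a log2 FC of -0.77 (SE 0.21), or 1.71 times less signal with the HF diet. The difference was -0.87 in the low RFI line and -0.67 in the high RFI line. On each of the 6 slides the HF mean was below the LF mean, with a log2 difference of -1.65 to -0.15, and the log2 FC was -0.84 on the first scan day and -0.70 on the second. These values describe the difference that chose ACSL4 and do not test it.

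As a description of the same pigs, the other ACSL4 probes gave the same sign. Over all 8 probes the diet log2 FC ran from -1.17 (O10047) to -0.51 (A_72_P597234), with a median of -0.77. The 6 probes with a start position in the scanner output lie between bases 314 and 4760 of the transcript, and the probe nearest to its start (A_72_P186236) had a log2 FC of -0.77, as did the one nearest to its end. Over the 48 pigs, with the 4 group means subtracted, 6 of the 7 other probes followed the brightest one closely (Pearson's r between 0.92 and 0.99), and O10047 did so less (r = 0.54, Spearman's rho = 0.45, 2-sided permutation test with 100000 resamples, P-BH over 10 probe pairs of 0.0001 and 0.00158, r = 0.46 without the 2 pigs farthest from the median). O10047 is thus both the probe with the largest diet difference and the one least like the rest.

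All 3 markers of red blood cells were also lower with the HF diet, and 0 of them were called. The haemoglobin chain HBB had a log2 FC of -0.57 with the HF diet (P = 0.0109, limma, not called), its chaperone AHSP one of -0.57 (P = 0.0113) and the haem synthesis enzyme ALAS2 one of -0.07 (P = 0.457). The mean level of these 3 of 3 markers ran from 0.15 to 2.67 with the HF diet and from 0.42 to 2.77 with the LF diet. All 5 hepatocyte markers were lower with the HF diet, with a median log2 FC of -0.09 and 0 of them called. The 3 red blood cell markers were well above background on all 48 arrays, and their part in the ACSL4 difference was not tested. In whole liver, fewer cells of a type and less RNA per cell cannot be told apart.

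**Figure D1:**
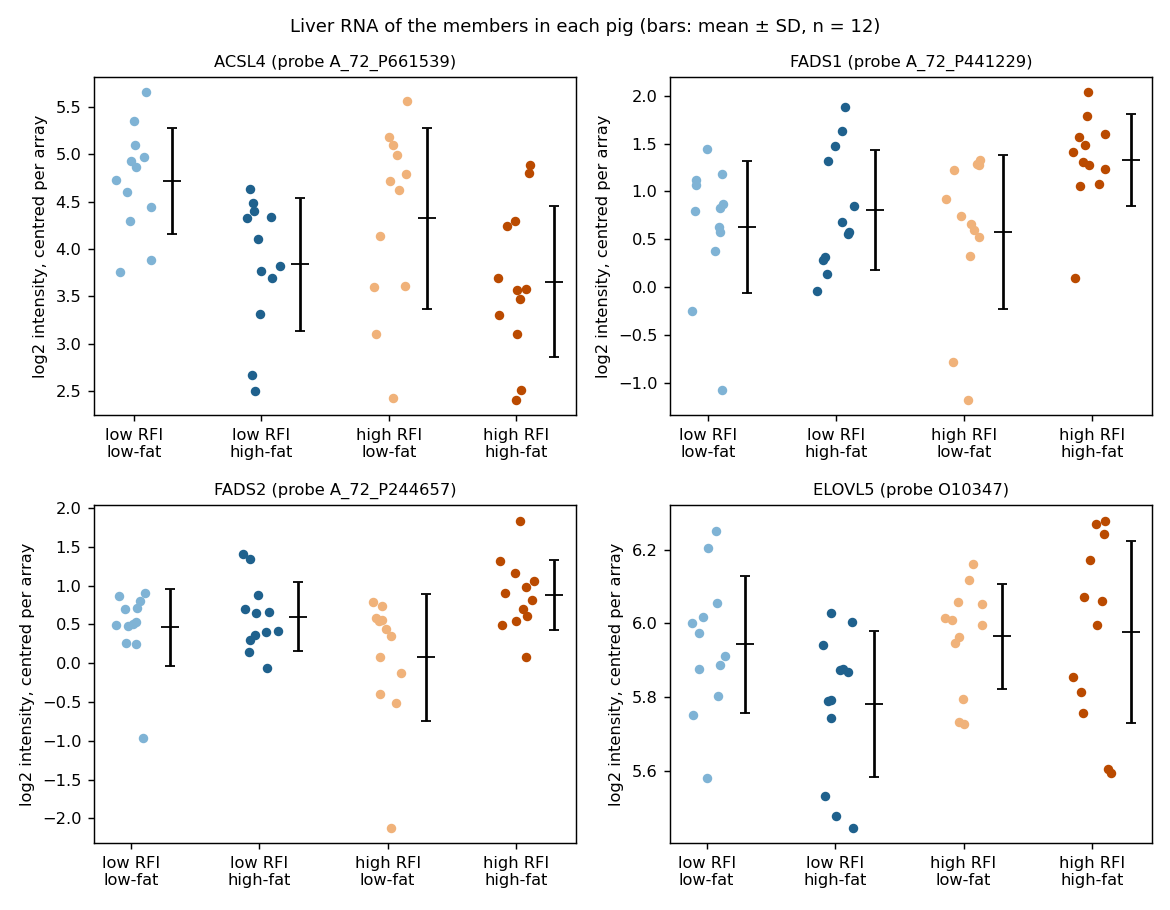
Level of each member in each of the 48 pigs, by line and diet, as log2 intensity centred per array, for the probe of highest mean intensity. Each point is a pig and the black bar is the mean ± SD of 12 pigs. ACSL4 is lower with the high-fat diet in both lines, the highest FADS1 and FADS2 means are those of high RFI pigs fed the high-fat diet, and a single high RFI pig fed the low-fat diet has a FADS2 level of -2.12.

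FADS2, the desaturase of the first step, was over-expressed with the HF diet, opposite in sign to ACSL4. In the high RFI line, its level was 0.09 at the lowest, 0.86 at the median and 1.84 at the highest with the HF diet, against -2.12, 0.39 and 0.80 with the LF diet. In the low RFI line, the values were -0.07, 0.53 and 1.41 with the HF diet and -0.96, 0.52 and 0.90 with the LF diet. The LF median was exceeded by 11 of 12 HF pigs in the high RFI line and by 6 of 12 in the low RFI line, and the groups overlapped in both lines.

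Over both lines the FADS2 mean was 0.74 ± 0.46 (SD, n = 24) with the HF diet and 0.27 ± 0.69 (SD, n = 24) with the LF diet. The log2 FC was 0.47 (SE 0.16, limma P = 0.00553, P-BH = 0.160, a 1.38-fold over-expression) and met the cut-offs. The second FADS2 probe, O13379, did so too (log2 FC 0.43, SE 0.14, P = 0.00433, P-BH = 0.147) and its level followed that of the first over pigs (r = 0.97, rho = 0.93, P-BH of 1.25e-05 for both in the permutation test, r = 0.94 without the 2 farthest pigs). Over the 45236 probes of the fit, 4.61% were called for the diet and 2.07% with a higher level in HF pigs. Neither FADS2 probe passed a P-BH of 5%, which 0.455% of the tested probes did. The HF mean was above the LF mean on 5 of 6 slides. When each pig was left out in turn, the call of the brightest probe was lost without 1 of 2 pigs, HF high RFI replicate 5 (log2 FC 0.43, P = 0.0103) or LF low RFI replicate 9 (log2 FC 0.40, P = 0.0106), and that of O13379 was kept in all 48 cases. With 24 pigs, the call was not met on the first scan day (log2 FC 0.41, P = 0.0348) nor on the second (0.53, P = 0.0593).

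FADS1, which acts after FADS2, had a diet difference of about the same size but wider spread. Its level ran from 0.10 to 2.03 (median 1.36) in the high RFI line with the HF diet and from -1.18 to 1.33 (median 0.70) with the LF diet. In the low RFI line it ran from -0.04 to 1.89 (median 0.63) with the HF diet and from -1.07 to 1.45 (median 0.81) with the LF diet. The LF median of the same line was exceeded by 11 of 12 HF pigs in the high RFI line and by 5 of 12 in the low RFI line, and the groups overlapped.

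Over both lines, the FADS1 log2 FC was 0.46 (SE 0.19, 95% confidence interval from 0.09 to 0.84, limma P = 0.0164, P-BH = 0.238) and did not meet the cut-offs. The dim opposite-strand probe O3556 had a diet log2 FC of 0.09 (SE 0.15, P = 0.578), while over pigs it followed the brightest FADS1 probe (r = 0.68, rho = 0.67, permutation P-BH of 1.25e-05 for both, r = 0.71 without the 2 farthest pigs). On 4 of 6 slides the HF mean of FADS1 was above the LF mean.

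The bile duct markers KRT19, KRT7, EPCAM and SOX9 had the same signs as the desaturases. For the diet, 4 of 4 were higher with the HF diet (median log2 FC 0.26), 0 were called and 2 had an unadjusted P under 0.05 (limma). For the interaction, 4 of 4 were below 0 (median -0.26), 0 were called and 0 had an unadjusted P under 0.05. Their mean level was -0.59 ± 0.47 (SD, n = 12) in high RFI pigs with the HF diet and -0.99 ± 0.39 with the LF diet, against -0.78 ± 0.44 and -0.94 ± 0.43 in low RFI pigs. It ran from -1.74 to 0.13 with the HF diet and from -1.59 to -0.21 with the LF diet. All 4 were well above background on 48 arrays, and their part in the FADS1 and FADS2 values was not tested.

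ELOVL5, the elongase that works between the 2 desaturases, was the least variable of the members. The level of its brightest probe was between 5.44 and 6.28 with the HF diet and between 5.58 and 6.25 with the LF diet. The diet log2 FC was -0.08 (95% confidence interval from -0.19 to 0.04, limma P = 0.200), and -0.09 (from -0.24 to 0.07, P = 0.283) for its second probe. A change of the size seen for FADS2 lies outside both intervals.

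**Figure D2:**
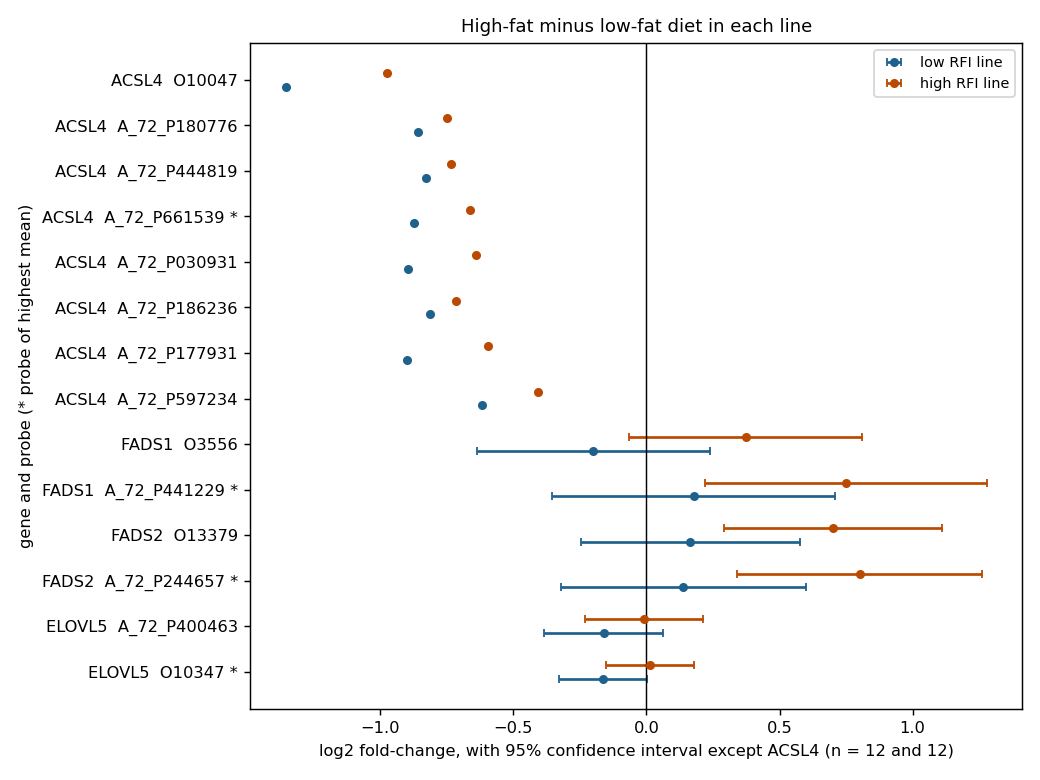
Difference between diets (high-fat minus low-fat, log2 fold-change) for the 14 member probes, with its 95% confidence interval except for ACSL4, whose diet values chose it, in the low RFI line (blue) and in the high RFI line (orange), 12 pigs per group. All 8 ACSL4 probes lie below 0 in both lines, and both FADS2 probes are close to 0.15 in the low RFI line and above 0.70 in the high RFI line.

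Every line was fed both diets, so that the diet effect could be compared between lines. Within the high RFI line, both FADS2 probes met the cut-offs (log2 FC 0.80, P = 0.00101, P-BH = 0.418, and 0.70, P = 0.00125, P-BH = 0.449, limma), as did the brightest FADS1 probe (0.75, P = 0.00649, P-BH = 0.591), while 1.58% of all tested probes did so in that line. Leaving out 1 pig at a time kept the 2 FADS2 calls in all 48 cases and the FADS1 call in 41. Within the low RFI line, the FADS2 log2 FC was 0.14 (95% confidence interval from -0.32 to 0.60, P = 0.547) and that of FADS1 was 0.18 (from -0.35 to 0.71, P = 0.506), where 2.68% of all tested probes were called.

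The difference between the lines was itself tested as the interaction. For FADS2 it was -0.66 (SE 0.32, limma P = 0.0458, P-BH = 0.9999), for O13379 -0.54 (SE 0.29, P = 0.0691) and for FADS1 -0.57 (SE 0.37, P = 0.130), and none met the cut-offs. It is thus not shown that the desaturases responded differently in the 2 lines. All 14 member probes had an interaction below 0, 0 of them were called by limma or by an unmoderated ANOVA, and 1 had an unadjusted P under 0.05 by limma and 0 by the ANOVA, where 0.376% of all probes of the fit were called. Probes of the same gene correlated over pigs, with r of between 0.46 (ELOVL5) and 0.99 (ACSL4) against the brightest one. FADS1 and FADS2 did so too (r = 0.82), so that these 14 signs are far from independent. The interaction was -0.21 for ACSL4 (SE 0.43, 95% confidence interval from -1.07 to 0.65, P = 0.627).

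ELOVL5 was the only member with a probe called between lines, and its 2 probes had opposite signs. The level of A_72_P400463 was 2.74 at the lowest, 3.16 at the median and 3.75 at the highest in the low RFI line, against 2.46, 3.03 and 3.47 in the high RFI line. Its mean was 3.22 ± 0.24 (SD, n = 24) and 2.97 ± 0.30 (SD, n = 24), a log2 FC of 0.25 (SE 0.08, limma P = 0.00280, P-BH = 0.0629), and the high RFI median was exceeded by 19 of 24 low RFI pigs. The brighter probe O10347 had a log2 FC of -0.11 (SE 0.06, P = 0.0665), with levels of 5.44 to 6.25 in the low RFI line and 5.59 to 6.28 in the high RFI line.

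Of the 14 member probes 1 was called for the line, against 6.91% of all probes of the fit. The call of A_72_P400463 was kept whichever pig was left out and was lost on each scan day taken alone (P = 0.0341 and 0.0435). The 2 ELOVL5 probes correlated only moderately over pigs (r = 0.46, rho = 0.41, permutation P-BH of 0.00126 and 0.00395, r = 0.40 without the 2 farthest pigs). No direction between lines is therefore given for the gene.

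The 8 ACSL4 probes had line log2 FC of between 0.08 and 0.41, all above 0 and none called (brightest probe 0.29, 95% confidence interval from -0.14 to 0.72, limma P = 0.186). The value of the brightest probe was 0.02 on the first scan day and 0.56 on the second, and on the first day A_72_P177931 (-0.05) and A_72_P597234 (-0.03) were below 0. Over both days, the highest values (0.38 and 0.41) were those of the 2 overlapping probes that share 20 bases with ACSL3, and the ACSL3 probe itself had the opposite sign. The FADS1 log2 FC was -0.24 (from -0.61 to 0.14, P = 0.213), and that of FADS2 was 0.05 (from -0.27 to 0.38, P = 0.744).

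**Figure D3:**
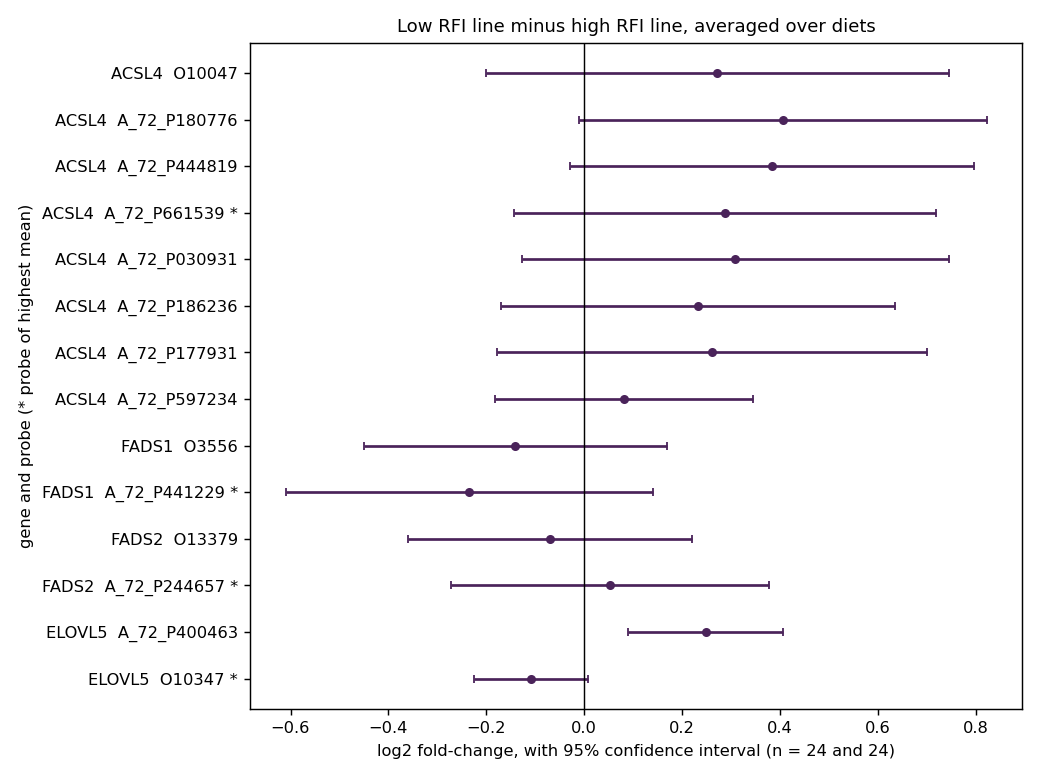
Difference between lines (low RFI minus high RFI, log2 fold-change with its 95% confidence interval, 24 pigs per line) for the 14 member probes. The interval excludes 0 for a single probe, ELOVL5 A_72_P400463 (0.25), while the brighter ELOVL5 probe lies at -0.11.

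Apart from line and diet, pigs with more FADS1 signal had more FADS2 signal. With the 4 group means subtracted, r was 0.82 over 48 pigs (rho = 0.79, 2-sided permutation test with 100000 resamples, P = 1e-05 for both, the smallest it can give, P-BH over the 6 member pairs of 6e-05), and r was 0.80 without the 2 pigs farthest from the FADS1 median. Within the 4 groups r was between 0.75 and 0.92, and r was 0.83 with the slide means subtracted too. The 16 bases that the 2 probes share were described above, and their part in this relation was not tested. In the RefSeq gene table, FADS3, FADS2 and FADS1 follow each other on the chromosome with only loci that carry a LOC symbol between them.

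ACSL4 had no detected relation with either desaturase, which does not exclude a weak one. Its r was 0.21 with FADS1 (rho = 0.27, permutation P-BH of 0.451 and 0.205) and -0.03 with FADS2 (rho = -0.11, P-BH of 0.850 and 0.573), while without the 2 farthest pigs r was 0.17 and 0.01. Within the line and diet groups, its r was between 0.13 and 0.31 with FADS1 and between -0.24 and 0.11 with FADS2. ELOVL5 gave r of between -0.15 and -0.03 with the other members (P-BH of between 0.466 and 0.850, rho of between -0.17 and 0.02). Of the 6 pairs, only that of FADS1 and FADS2 had a P-BH under 5%.

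**Figure D4:**
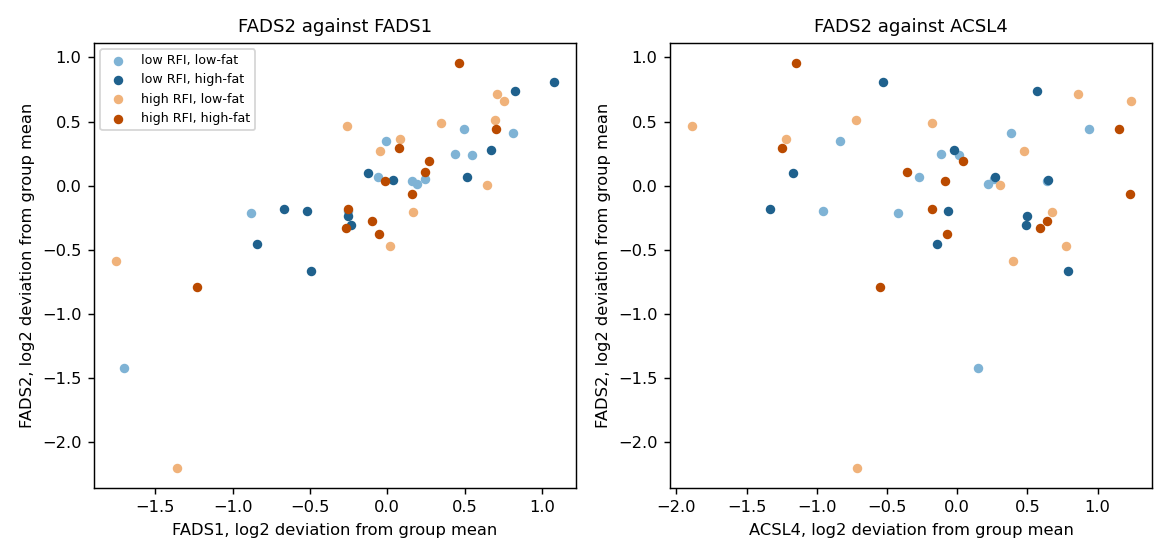
Deviation of each pig from the mean of its line and diet group (log2 scale) for FADS2 against FADS1 (left) and for FADS2 against ACSL4 (right), 48 pigs coloured by group. FADS1 and FADS2 rise together (r = 0.82), while no relation of FADS2 with ACSL4 was detected (r = -0.03).

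The genes whose deviations were most like those of each member were taken from 9231 genes well above background on all arrays, as a description over 48 pigs of values that share array and slide. For ACSL4 they were SCD, which makes monounsaturated fatty acids (r = 0.76), ALKBH6 (0.75) and PGM2, a sugar phosphate mutase (0.73). SCD had a diet log2 FC of -0.56 (SE 0.24, limma P = 0.0226, P-BH = 0.261, not called). For FADS1 they were FADS2 (0.82), the sterol synthesis enzyme LSS (0.73) and the fatty acid binding protein FABP1 (0.73), and for FADS2 they included FADS1 (0.82) and the lipid-binding protein SEC14L3 (0.75). SEC14L3 met the cut-offs for the diet, as FADS2 did (log2 FC 0.62, SE 0.17, P = 0.000572, P-BH = 0.0694).
For ELOVL5 they were GCM1 (0.91), MORF4L2 (0.69) and MAP2K1 (0.67). GCM1, known as a transcription factor of the placenta, is the gene next to ELOVL5 in the RefSeq gene table. Its probe followed ELOVL5 O10347 more closely (r = 0.91) than the second ELOVL5 probe did (r = 0.46). Whether the GCM1 and ELOVL5 probes read the same RNA was not tested.

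The other genes around these reactions were taken from 7 lists with 114 genes, of which 97 could be tested. The lists, too, were chosen with earlier results of these data known. Between lines, 9 of the 97 met the cut-offs (4 of them higher and 5 lower in low RFI pigs), against 6.77% of all tested genes. Between diets, 5 of the 97 did (2 higher and 3 lower with the HF diet), against 4.2% of all tested genes. The median log2 FC was -0.03 for the line and -0.04 for the diet, beside 0.01 and -0.02 over all genes. For the interaction, 0 of 97 were called and 2 had an unadjusted P under 0.05 (limma), against 0.339% of all tested genes called.

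Among the 11 tested desaturases, elongases and partner enzymes, 1 was called for each effect. FADS6, a desaturase-like protein of unclear substrate, was over-expressed with the HF diet (log2 FC 0.30, limma P = 0.00598, P-BH = 0.164), with 2 of 2 probes called. Its level was 7.57 at the lowest, 8.30 at the median and 8.83 at the highest with the HF diet and 6.97, 8.01 and 8.86 with the LF diet, so that the groups overlapped. HACD3, a dehydratase of the elongation cycle, was over-expressed in low RFI pigs (0.15, P = 0.00224, P-BH = 0.0548).

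Of the 7 peroxisomal enzymes that trim the longest acids, DECR2, which removes double bonds ahead of peroxisomal oxidation, was over-expressed in the low RFI line (log2 FC 0.18, limma P-BH = 0.00572). For the diet, 6 of the 7 were lower with the HF diet, 0 were called and 1 had an unadjusted P under 0.05.

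The 12 acyl-CoA synthetases, transporters and binding proteins held 2 relatives of ACSL4 that were called, each for another effect. ACSL1, the main synthetase of liver, fell with the HF diet (log2 FC -0.36, limma P = 0.00814, P-BH = 0.184), as 3 of its 4 probes met the cut-offs. Its level ran from 7.39 to 8.96 (median 8.05) with the HF diet and from 7.82 to 9.68 (median 8.34) with the LF diet. ACSL3, a synthetase of lipid droplets and the endoplasmic reticulum, was under-expressed in low RFI pigs by all 4 of its probes (log2 FC -0.76, P-BH = 0.000714).

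ACSL3 levels ran from 2.13 to 4.95 (median 3.32) in the low RFI line and from 2.98 to 4.71 (median 4.20) in the high RFI line. ACSL4 had line log2 FC above 0 with all its probes over both scan days, none of them called. A test of the difference between the 2 genes was not run.

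In the 20 tested genes of phospholipid remodelling, PLA2G7, a phospholipase that cleaves oxidised phospholipids, was over-expressed in the low RFI line (log2 FC 0.40, limma P-BH = 0.0116), with 6 of 6 probes called. For the diet, 0 of the 20 were called and 0 had an unadjusted P under 0.05.

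Eicosanoid genes showed 3 line calls among 16, where 6.77% of all tested genes were called and no set test was run. ALOX5AP, the partner protein that hands arachidonic acid to 5-lipoxygenase, was under-expressed in the low RFI line by all 5 of its probes (log2 FC -0.88, limma P-BH = 0.000257). Its level ran from 1.04 to 3.50 (median 2.20) in the low RFI line and from 2.02 to 3.58 (median 2.97) in the high RFI line. ALOX12, a lipoxygenase of arachidonic acid, was over-expressed (0.67, P-BH = 0.00561). PTGR1, which inactivates prostaglandins and leukotrienes, met the cut-offs by its brightest probe (-0.39, P-BH = 0.0688), while its other 3 probes had log2 FC of between 0.01 and 0.09. For the diet, 0 of the 16 were called and 1 had an unadjusted P under 0.05.

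Among the 16 regulators, PPARA, the fatty acid receptor that activates oxidation genes and both desaturases, met the cut-offs for both effects with its brightest probe. It was over-expressed with the HF diet (log2 FC 0.40, limma P = 0.00361, P-BH = 0.139) and under-expressed in the low RFI line (-0.37, P = 0.00727, P-BH = 0.116). Of its other 2 probes, O221 had a diet log2 FC of 0.29 (P = 0.0326) and A_72_P441798 one of 0.02 (P = 0.842), and their line log2 FC were -0.07 (P = 0.624) and 0.04 (P = 0.761), so that each PPARA call rests on 1 of 3 probes. SCAP, the escort of the SREBP transcription factors, fell with the HF diet by both its probes (log2 FC -0.16, P-BH = 0.186, and -0.18, P-BH = 0.144). INSIG1, which retains SCAP, was lower in the low RFI line by its brightest probe (-0.17, P-BH = 0.123). Its other probe had the same sign and was not called (-0.37, limma P = 0.0651).

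Of the 15 genes of lipid peroxidation, in which ACSL4 also takes part, SAT1, which acetylates polyamines, fell with the HF diet (log2 FC -0.21, limma P = 0.00310, P-BH = 0.132). The other 7 SAT1 probes were not called and had log2 FC of between -0.23 and -0.11. For the line, 0 of the 15 were called and 2 had an unadjusted P under 0.05.

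**Figure D5:**
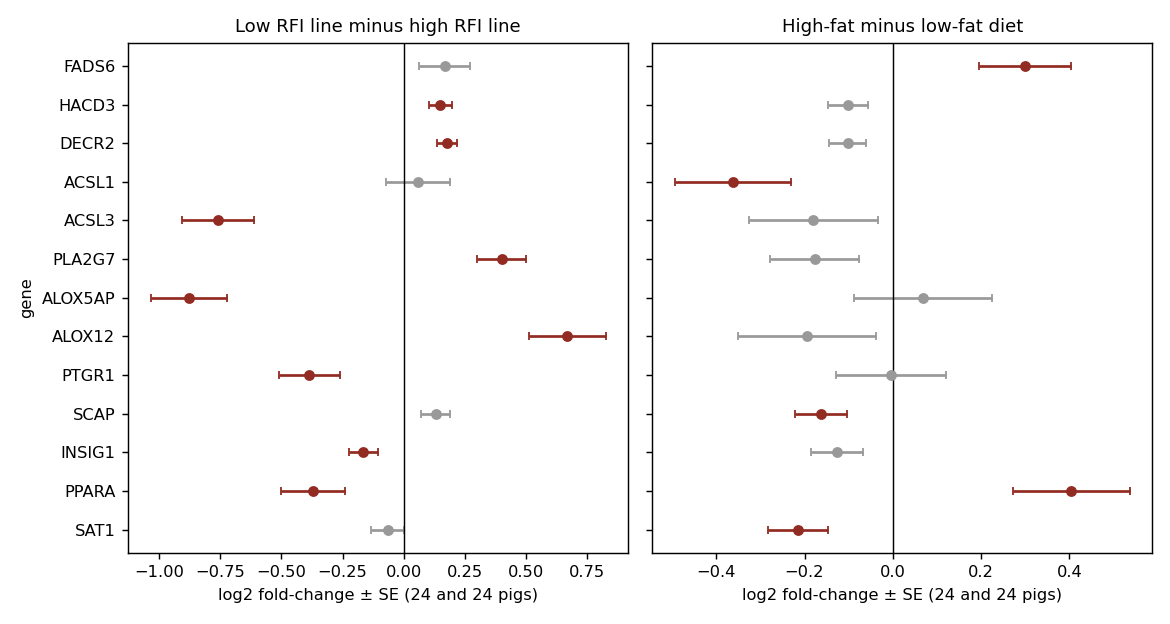
The 13 genes of the 7 lists called for the line (left) or the diet (right), as log2 fold-change ± SE over 24 and 24 pigs, red where the effect met the cut-offs and grey where it did not. ALOX5AP (-0.88) and ACSL3 (-0.76) have the lowest line values, ALOX12 (0.67) the highest, and PPARA is called in both panels by 1 of its 3 probes.

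Markers of other cells were set beside the line calls as well. The macrophage markers, of cells that also express ALOX5AP, had a median line log2 FC of -0.18, with 5 of 6 below 0 and 0 called, and a median list level of 3.54 in the low RFI line and 3.62 in the high RFI line. The 3 red blood cell markers were all above 0 for the line (median 0.38, 0 called), with a list level of 0.85 to 2.77 in the low RFI line and 0.15 to 2.73 in the high RFI line. All 6 endothelial markers were above 0 as well (median 0.09, 0 called), with 0.27 to 1.22 and 0.10 to 1.03. The bile duct marker KRT7 (-0.35, limma P = 0.00646) and the hepatocyte marker APOA1 (0.15, P = 0.00777) met the cut-offs, where 6.77% of all tested genes did. Of the bile duct markers 3 of 4 were below 0, and of the hepatocyte markers 5 of 5 were above 0. The T and NK cell markers had 4 of 5 below 0 and the B cell markers 3 of 4, with 0 called in either list. The part of these cells in the line values was not tested.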

How the data were processed

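The members and the gene lists were chosen with earlier results of these data known, and ACSL4 for its diet difference. The authors deposited scanner output with a background-subtracted intensity per spot, not normalized between arrays, made with Agilent Feature Extraction. They also deposited a table of log2 values (R 2.10.0 per the submitters' processing notes), which equal the log2 median intensity minus a constant per array (37379 rows) and served as an alternative. No genome build is given in the sources used here.

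Here 483 spots marked as outliers were set to missing, spots of 1 probe were averaged, and a probe was kept if 12 or more arrays had it well above background. Intensities were log2-transformed, centred on the median of each array and fitted with limma 3.58.1 in R 4.3.3 (prior degrees of freedom 2.80). The number of arrays limits the precision. Correlations were tested by permutation. Gene symbols came from the RefSeq table where it held the accession of a probe (7173 probes), otherwise from the scanner output (16894 probes). The model was tested on simulated data.

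Named genes were the members, genes of the lists called for line or diet, and the 3 genes most like each member. A gene within this rule is not reported here. Cell type markers, SCD, SEC14L3 and GCM1 values were added. Alternatives were an unmoderated ANOVA, other centring, normalization, background correction and filters, outliers kept, slide and scan day, the deposited log2 values, no interaction term, and the mean of all probes of a gene. Leaving out each pig in turn was added after seeing the data. Labels give each pig 1 array, and p-values measure the spread between pigs.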

Additional observations from a re-analysis of the deposited data

Results flagged for a closer look

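The diet difference of FADS2 was 0.14 in the low RFI line and 0.80 in the high RFI line, and the interaction of line and diet was -0.66 on the log2 scale (limma P = 0.0458, P-BH = 0.9999). It was picked out by an unadjusted P under 0.05 among the 4 members tested. It did not meet the cut-offs of P under 0.01 and FC over 1.1. When each pig was left out in turn, the unadjusted P ran from 0.0124 to 0.0864, the highest being without LF high RFI replicate 12 (log2 interaction of -0.46).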

How the results depend on the processing

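Under the other settings, 217 values stayed as they were, 2 lost the call, 4 counts moved and 7 changed sign. For a tested effect, to stay means the same direction and side of the cut-offs, and for counts a value within 1.5 times. For ACSL4 and the diet, which has no test, it means the same sign and a shift within the SD between pigs. That SD is about as large as the ACSL4 difference itself, and the diet values chose the gene. The ACSL4 diet values could thus hardly have failed, and their place among the 217 is no support for the fall. The FADS2 diet call was lost on each scan day (0.41 and 0.53), and without 1 pig it ranged from 0.37 to 0.51. The 5 pathway genes called for the diet became 3 without the filter on dim probes, 2 and 1 on the scan days, and between 3 and 7 without 1 pig (3 without HF low RFI replicate 2, LF low RFI replicate 9, LF high RFI replicate 9 or LF high RFI replicate 11). The 9 called for the line became 3 on the second scan day, and between 7 and 12 without 1 pig. Signs turned for values near 0: the ACSL4 interaction on the first scan day (0.15), the line effect with the mean of all probes for FADS2 (-0.00852) and ELOVL5 (0.0694), and the correlations of ACSL4 with FADS1 for values as they are (-0.00206), of ACSL4 with FADS2 without the 2 farthest arrays (0.00670), and of FADS2 with ELOVL5 by Spearman's rho (0.0224) and with slide means subtracted (0.0804). A scan day holds 24 arrays, fewer than the full set, and the causes of the other moves were not tested. No paired analysis was possible, because each pig gave 1 array and the labels name no pairs. The replicate numbers used here count the pigs of each group in the order of the samples and are not those of the labels. The dim FADS1 probe, well above background on 42 arrays, limits what can be said of that strand.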

Other observations

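A probe outside the rule for the members has the same 60 bases as the ACSL4 probe A_72_P177931 but carries no gene symbol in the scanner output, where only the name of the probe, which the rule did not read, holds the RefSeq accession of ACSL4. Its diet log2 FC was -0.80 and that of A_72_P177931 was -0.75, a description of the same sequence in the same pigs with no test. An unnamed probe, A_72_P316818, is the reverse complement of the FADS2 probe O13379 over 38 bases. It had a diet log2 FC of 0.40 (SE 0.16, limma P = 0.0162, P-BH = 0.237), where O13379 had 0.43, and its line log2 FC was 0.05 (P = 0.767).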
